A study of Mus musculus with 65 samples.

Results

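Dendritic cells without MyD88 were compared after 4 h and after 2 h of lipopolysaccharide (LPS), the bacterial cell wall component that Toll-like receptor 4 (TLR4) recognises. The comparison rests on 3 RNA-seq libraries titled MyD88KO TrifWT at 4 h and 3 with the same genotype at 2 h, each with a count per gene and a count per transposable element (TE) copy. These are 6 of the 65 libraries of the series and of the 35 libraries of its experiment 3. The cells were grown from bone marrow of mice on the C57BL/6 background and kept in untreated 6-well dishes. They lacked MyD88 and were wild type for Trif, Ifnar and Suv39h1, and LPS was given at 100 ng/mL. Poly(A) RNA was sequenced from stranded libraries. The libraries of a time point carry cohort numbers 1 to 3, and the series describes them as separate biological replicates. The age of the mice and the deleted part of Myd88 are not in the labels used here. Wild-type cells given the same dose, with 6 libraries at 4 h and 5 at 2 h, were used to test whether a change differed between the genotypes.

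TLR4 passes its signal through a pair of adaptors. MyD88 leads to fast activation of NF-kB and MAP kinases, and TRIF (encoded by Ticam1) leads through the kinase TBK1 to the transcription factor IRF3, to interferon beta and, with a delay, also to NF-kB. Secreted type I interferon then acts back on the cells through its receptor IFNAR and a complex of transcription factors, STAT2 and IRF9 among them, which binds the interferon-stimulated response element (ISRE) in front of antiviral genes. In cells without MyD88, TRIF is the adaptor left to TLR4.

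The promoters of 4 of the antiviral genes described here, and of a chemokine gene that moved the other way, are shown because they carry the sequence motifs that the named transcription factors are known to bind. Each runs from 250 bases before to 50 bases after the start of the gene, on the strand of the gene, from RefSeq (GRCm38.p6). Capitals mark the ISRE core GAAANNGAAA or its reverse complement TTTCNNTTTC in Ddx60 (chr8:61927837-61928136, plus strand), Ifit1 (chr19:34640639-34640938, plus strand), Ifit3 (chr19:34583279-34583578, plus strand) and Isg15 (chr4:156200769-156201068, minus strand), and the NF-kB site GGGANTTTCC in Cxcl2 (chr5:90903649-90903948, plus strand).
Ddx60: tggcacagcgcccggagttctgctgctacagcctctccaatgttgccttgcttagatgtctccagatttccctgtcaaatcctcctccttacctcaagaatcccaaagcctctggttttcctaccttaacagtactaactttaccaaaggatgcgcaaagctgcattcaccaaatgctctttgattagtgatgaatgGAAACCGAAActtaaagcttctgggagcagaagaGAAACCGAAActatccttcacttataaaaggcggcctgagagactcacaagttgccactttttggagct
Ifit1: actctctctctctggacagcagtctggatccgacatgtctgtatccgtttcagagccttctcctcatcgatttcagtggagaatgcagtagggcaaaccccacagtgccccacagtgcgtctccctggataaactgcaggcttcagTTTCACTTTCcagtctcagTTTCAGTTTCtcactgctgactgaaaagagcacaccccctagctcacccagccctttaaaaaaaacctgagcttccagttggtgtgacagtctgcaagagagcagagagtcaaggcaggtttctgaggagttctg
Ifit3: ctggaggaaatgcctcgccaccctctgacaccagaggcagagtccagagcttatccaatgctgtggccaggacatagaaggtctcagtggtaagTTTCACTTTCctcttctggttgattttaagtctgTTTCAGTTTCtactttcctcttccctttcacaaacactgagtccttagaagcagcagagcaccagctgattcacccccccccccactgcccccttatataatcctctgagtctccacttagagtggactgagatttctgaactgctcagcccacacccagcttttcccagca
Isg15: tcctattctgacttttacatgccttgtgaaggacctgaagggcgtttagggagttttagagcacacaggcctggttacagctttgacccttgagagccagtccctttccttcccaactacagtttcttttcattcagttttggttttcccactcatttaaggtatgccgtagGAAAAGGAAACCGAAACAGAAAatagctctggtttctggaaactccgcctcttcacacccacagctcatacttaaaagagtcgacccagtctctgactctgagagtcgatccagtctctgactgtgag
Cxcl2: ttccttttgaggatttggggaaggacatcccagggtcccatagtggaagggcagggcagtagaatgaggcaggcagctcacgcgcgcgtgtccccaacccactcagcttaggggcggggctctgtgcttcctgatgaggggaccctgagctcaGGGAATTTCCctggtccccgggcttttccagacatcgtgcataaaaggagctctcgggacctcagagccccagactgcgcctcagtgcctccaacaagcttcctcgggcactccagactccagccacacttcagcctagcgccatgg
The cores of Ifit1 began 104 and 85 bases before the start of the gene, and those of Ddx60 53 and 19 bases before it. In Isg15, 3 matches to the core overlapped between 78 and 66 bases before the start. The Cxcl2 promoter held 1 NF-kB match, 97 bases before the start, and no ISRE core. Both motifs were searched on both strands as the letters given above. Among the 10 largest rises taken by the rule for named genes, 9 had a promoter and 3 of these held an ISRE core. Among the 10 largest falls, 6 had a promoter, and neither motif stood in any. NF-kB matches also stood in Gbp5, B2m and Tlr3, which rose, and in Nfkbia and Il6, whose change did not pass the test used below. ISRE cores also stood in Socs1 and Myd88, whose change did not pass either.

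The 6 libraries held 46035727 to 54354876 gene counts and 2034417 to 2726336 TE counts. Myd88 transcripts measured 97.6, 83.3 and 95 CPM (counts relative to the scaled library total) at 4 h, against 115, 93.7 and 95.2 CPM at 2 h in MyD88KO cells. In wild-type cells they measured 384 to 461 CPM at 4 h, against 269 to 323 CPM at 2 h. Which exons these reads cover was not analysed here, so the level does not check the genotype. Ticam1 measured 24.2, 23.8 and 34.3 CPM at 4 h, against 26.1, 29.3 and 43.6 CPM at 2 h in MyD88KO cells. Tlr4 measured 44.1, 88.3 and 32.5 CPM at 4 h, against 46.4, 79.4 and 28.0 CPM at 2 h, with cohort 2 highest at both times. Itgax, which encodes the dendritic cell integrin CD11c, measured 323 to 600 CPM at 4 h, against 471 to 750 CPM at 2 h. The summed level of 16 B, T and NK cell markers was 6.33 to 14.4 CPM at 4 h, against 3.62 to 20.1 CPM at 2 h, and that of 17 erythroid, megakaryocyte and stroma markers was 9.26 to 13.8 CPM at 4 h, against 11.7 to 16.1 CPM at 2 h. The 9 TrifKO libraries of the experiment entered only the estimate of the spread. Ticam1 was at 2.46 and 2.94 CPM in their libraries numbered 3 at 4 h and 2 h, and at 29.8 to 50.3 CPM in the others. In bulk samples, fewer cells of a type and less RNA per cell cannot be told apart.

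Between 2 h and 4 h the interferon programme of MyD88KO cells rose, and a smaller set of genes fell. Among those that fell were early inflammatory genes and the dendritic cell lectin genes Cd209a and Clec10a. Of 14475 genes tested, 1757 changed (12.1%), of which 1081 were higher at 4 h (7.47%) and 676 were lower (4.67%), by edgeR's quasi-likelihood test with Benjamini-Hochberg adjustment over all genes tested at 0.05. A change of at least 2-fold was seen in 431 of the higher and 197 of the lower genes. The median log2 fold change over all genes tested was -0.04. Of the 1757, 1598 had no overlap between the 3 libraries at 4 h and the 3 at 2 h, as had 26.3% of all genes tested. With the cohort number as a block, 2325 genes changed. With only the 6 libraries in the fit 604 changed, and with those 6 libraries and the block 3605. Log2 fold changes below are 4 h over 2 h with their standard error, and adjusted p-values come from the same test. CPM is not corrected for gene length, so levels are compared between libraries and not between genes.

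Interferon beta itself was lower at 4 h. Ifnb1 measured 0.832, 0.846 and 1.24 CPM at 4 h, against 3.67, 2.70 and 3.99 CPM at 2 h. Every library at 4 h lay below every library at 2 h, and the untreated cells of the same genotype measured 0 to 0.0355 CPM. The log2 fold change was -1.83 ± 0.53 (adjusted p = 0.0202). The call was lost without the 2 h library of cohort 3 and without the 4 h library of cohort 1 or of cohort 2, with adjusted p-values up to 0.0799.

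Transcription factors that act below the interferon receptor rose. Stat2, a factor of the type I interferon response, measured 798, 677 and 676 CPM at 4 h, against 183, 150 and 208 CPM at 2 h. Each cohort was higher at 4 h and the times did not overlap (1.99 ± 0.27, adjusted p = 5.74e-06), and its level before LPS was 123 to 185 CPM. Irf9, which binds DNA in the same complex, rose by 0.72 ± 0.12 (adjusted p = 0.000166). Irf7, the interferon-induced factor that amplifies interferon transcription, measured 420, 274 and 390 CPM at 4 h, against 37.7, 29.3 and 31.3 CPM at 2 h. The groups were far apart, with a log2 fold change of 3.46 ± 0.47 (adjusted p = 6.41e-06). Usp18, a protease that removes ISG15 and dampens the receptor, rose by 2.34 ± 0.30 (adjusted p = 2.66e-06). Ifnar1, a chain of the type I interferon receptor, measured 187, 196 and 187 CPM at 4 h, against 193, 199 and 173 CPM at 2 h (0.02 ± 0.11, adjusted p = 0.957). Ifngr1, a chain of the interferon gamma receptor, fell to 78.1, 80.2 and 64.5 CPM at 4 h, against 172, 145 and 117 CPM at 2 h (-0.96 ± 0.21, adjusted p = 0.00186). Of 15 tested genes of interferon receptor signalling, 7 were higher and 1 was lower, with a median of 0.43. The count higher was 4 with only the 6 libraries in the fit.

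The genes that interferon and IRF3 induce moved as families. Of 37 tested Ifit, Oas, Mx and related antiviral genes, 33 were higher at 4 h and none was lower, with a median log2 fold change of 2.69 against -0.04 over all genes tested. The medians of the log2 ratios within cohorts 1, 2 and 3 were 2.67, 2.45 and 2.70. Together these 37 genes summed to 15100 to 17800 CPM at 4 h, against 4900 to 5800 CPM at 2 h. Ifit3, whose protein belongs to a complex that holds back viral RNA, measured 677, 563 and 666 CPM at 4 h, against 70.6, 40 and 67.8 CPM at 2 h, a log2 fold change of 3.42 ± 0.52 (adjusted p = 3.47e-05). Its neighbour Ifit1, which binds viral RNA lacking the host cap methylation, measured 1020, 1130 and 952 CPM at 4 h, against 224, 149 and 227 CPM at 2 h (2.37 ± 0.57, adjusted p = 0.00533). No 2 h library reached any 4 h library in either gene. Rsad2, which encodes the antiviral enzyme viperin, measured 2650, 2760 and 1300 CPM at 4 h, against 325, 251 and 190 CPM at 2 h, with cohort 3 the lowest at both times (3.13 ± 0.75, adjusted p = 0.00511). Ifi44, of unsettled function, had among the largest rises of all genes. It measured 26.3, 17.1 and 38.1 CPM at 4 h, against 1.02, 0.615 and 1.40 CPM at 2 h (4.74 ± 0.68, adjusted p = 1.55e-05). Oasl2, a relative of the oligoadenylate synthetases (3.95 ± 0.61), and Isg20, an exonuclease of RNA (3.75 ± 0.47), rose by similar amounts. Mx1 also rose (1.37 ± 0.38, adjusted p = 0.0144), but its call was lost without the 4 h library of cohort 1 and without the 2 h library of cohort 2 or 3 (adjusted p up to 0.0956).

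**Figure D1:**
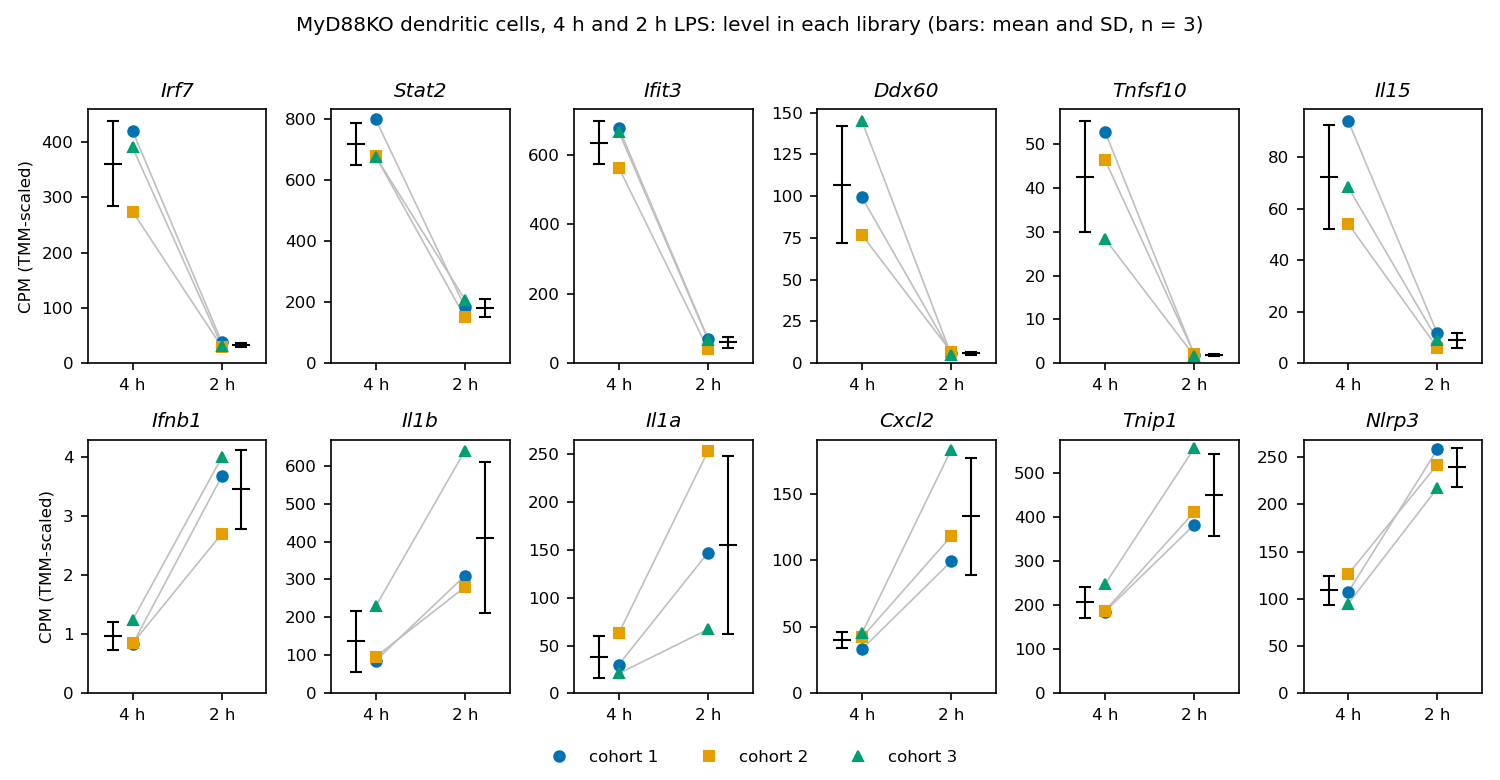
CPM (linear axis from 0) of 12 genes in each MyD88KO library at 4 h and at 2 h, 1 panel per gene. Points are libraries by cohort, grey lines join a cohort, and black bars give the mean ± SD of 3 libraries. In the panels of Irf7, Stat2, Ifit3, Ddx60, Tnfsf10 and Il15 the 4 h libraries lie above the 2 h libraries, and in those of Ifnb1, Il1b, Il1a, Cxcl2, Tnip1 and Nlrp3 they lie below them.

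Genes for ISG15 conjugation and the interferon-induced PARPs rose, with 11 of 11 higher and a median of 2.33. Isg15, the ubiquitin-like modifier, measured 891, 512 and 975 CPM at 4 h, against 171, 104 and 140 CPM at 2 h (2.52 ± 0.47, adjusted p = 0.000465). Herc6, the mouse ligase that attaches it, rose by 3.47 ± 0.37, and Parp14, an ADP-ribosyltransferase, by 2.36 ± 0.34. Of the p200 family, whose proteins bind DNA in the nucleus and cytosol, 9 of 9 tested genes were higher (median 2.49), and Ifi208 rose most in it (4.38 ± 0.93). Of 20 guanylate-binding and immunity-related GTPases, which attack the vacuoles of microbes, 17 were higher and none was lower (median 2.58). Iigp1 measured 45.5, 25.6 and 11.6 CPM at 4 h, against 1.22, 1.01 and 0.549 CPM at 2 h. Cohort 1 was highest and cohort 3 lowest at both times, and the times did not overlap (4.89 ± 1.04, adjusted p = 0.00184). Of 8 Schlafen genes, 6 were higher (median 2.54), led among those with a call in every alternative by Slfn5 (3.01 ± 0.48).

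Sensors of nucleic acids rose too, with 13 of 22 higher and none lower (median 1.09). Zbp1, a sensor of left-handed nucleic acids and a trigger of cell death, measured 219, 141 and 256 CPM at 4 h, against 18.8, 17.2 and 12.6 CPM at 2 h (3.66 ± 0.55, adjusted p = 2.44e-05). Ddx60, a helicase linked to RNA sensing, measured 99.3, 76.8 and 145 CPM at 4 h, against 6.11, 6.77 and 5.05 CPM at 2 h (4.16 ± 0.57, adjusted p = 7.32e-06). In both genes the lowest 4 h library was several times the highest 2 h library. The cytosolic RNA receptors Ddx58 (RIG-I, 2.94 ± 0.35) and Ifih1 (MDA5, 1.90 ± 0.38), their regulator Dhx58 (3.25 ± 0.34), the endosomal receptor Tlr3 (3.19 ± 0.52) and the RNA-activated kinase Eif2ak2 (2.44 ± 0.23) rose. Cgas, the cytosolic DNA sensor, had a log2 fold change of 0.56 with an adjusted p of 0.0565, and with the cohort block it passed the test (adjusted p = 0.0459). Of 15 tested factors that restrict retroelements and retroviruses, 9 were higher and none was lower (median 1.09). They included Trim30a (3.3 ± 0.32), Trim30d (3.27 ± 0.38), the RNA helicase Mov10 (2.08 ± 0.30), the nucleotide hydrolase Samhd1 (1.79 ± 0.22) and the cytidine deaminase Apobec3 (1.09 ± 0.15).

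Many MHC class I genes rose. Of 23 MHC class I genes, 16 were higher and none was lower (median 0.76), while of 14 MHC class II genes none was higher and 2 were lower (median -0.03). With only the 6 libraries in the fit, 8 class I genes were higher and no class II gene passed. Nlrc5, the transactivator of class I genes, measured 366, 224 and 355 CPM at 4 h, against 40.7, 30.6 and 40 CPM at 2 h. Its groups did not overlap, and it rose by 3.09 ± 0.37 (adjusted p = 1.03e-06). The peptide transporter subunit Tap1 (1.23 ± 0.17), the loading chaperone Tapbp (1.20 ± 0.18), the light chain B2m (0.63 ± 0.15) and the non-classical H2-T22 (1.90 ± 0.26) rose. The class I heavy chain H2-K1 had a log2 fold change of 0.37 (adjusted p = 0.0532), and passed with the cohort block (adjusted p = 0.0181). H2-Aa, the alpha chain of a class II molecule, measured 5920, 4320 and 6390 CPM at 4 h, against 5700, 4180 and 6510 CPM at 2 h (0.02 ± 0.22, adjusted p = 0.974).

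Few genes of the receptor pathway itself passed the test, as was so over all genes tested (7.47% higher and 4.67% lower). Of 27 tested genes for the TLR4 receptor, its adaptors and kinases, 1 was higher and none was lower, with a median of 0.00. Over the alternatives 0 to 5 were higher and 0 to 3 lower. The gene called higher, Ikbkg, which encodes a scaffold of the IKK complex, overlapped between times (103, 143 and 129 CPM at 4 h, against 79.9, 111 and 88.3 CPM at 2 h, adjusted p = 0.0202). Its call was lost with each of 4 libraries left out, cohort 1 or 3 at 2 h and cohort 2 or 3 at 4 h (adjusted p up to 0.127). Of 20 NF-kB subunits and feedback genes, 1 was higher and 3 were lower, with 0 to 4 higher and 1 to 5 lower over the alternatives. Tnip1, a feedback inhibitor of NF-kB, fell to 186, 188 and 248 CPM at 4 h, against 383, 412 and 557 CPM at 2 h (-1.12 ± 0.14, adjusted p = 3.01e-06). The inhibitors Nfkbia (-0.19 ± 0.18, adjusted p = 0.594) and Tnfaip3 (-0.26 ± 0.23, adjusted p = 0.551) did not pass.

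Several early inflammatory genes were lower at 4 h than at 2 h. Il1b, which encodes the fever-inducing cytokine interleukin-1 beta, measured 86.3, 96.5 and 229 CPM at 4 h, against 310, 280 and 639 CPM at 2 h, and 10.5 to 16.9 CPM before LPS. Each cohort was lower at 4 h than at 2 h (-1.58 ± 0.37, adjusted p = 0.00483). The call was lost without the 2 h library of cohort 3 (adjusted p = 0.0650) and with only the 6 libraries in the fit (adjusted p = 0.131). Il23a, a subunit of interleukin-23, measured 0.284, 0.0867 and 0.295 CPM at 4 h, against 1.54, 1.44 and 1.49 CPM at 2 h, a low level throughout (-2.72 ± 0.70, adjusted p = 0.0098). Cxcl2, a chemokine that attracts neutrophils, measured 33.2, 42 and 45.1 CPM at 4 h, against 99.1, 118 and 183 CPM at 2 h. All 4 h libraries lay below all 2 h libraries (-1.73 ± 0.49, adjusted p = 0.0177), and the call was lost without the 4 h library of cohort 1 or 3 and without the 2 h library of cohort 3 (adjusted p up to 0.0842). Its relative Cxcl1 had a log2 fold change of -1.54 (adjusted p = 0.0515), which passed with the cohort block (-1.41, adjusted p = 0.0396). Tnf, which encodes tumour necrosis factor, measured 118, 93.9 and 84.7 CPM at 4 h, against 275, 215 and 175 CPM at 2 h. Its groups did not overlap, yet it missed the threshold (-1.17 ± 0.47, adjusted p = 0.107) and passed with the block (-1.16, adjusted p = 0.033). The LPS co-receptor Cd14 had a log2 fold change of -0.68 (adjusted p = 0.121) and passed with the block (-0.72, adjusted p = 0.0284). Nlrp3, the sensor of the inflammasome that matures interleukin-1 beta, fell to 107, 126 and 94.8 CPM at 4 h, against 258, 242 and 217 CPM at 2 h (-1.13 ± 0.17, adjusted p = 1.93e-05).

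Not every inflammatory gene was lower. Il6 measured 26.3, 31.6 and 63.7 CPM at 4 h, against 30.8, 25.3 and 51.8 CPM at 2 h, with cohort 3 highest at both times (0.17 ± 0.46, adjusted p = 0.874). Of 24 tested cytokine genes, 3 were higher and 4 were lower, with a median of 0.01. Il15, a cytokine of the interferon programme that sustains NK cells and memory T cells, measured 94.1, 54.1 and 68.3 CPM at 4 h, against 11.5, 5.97 and 9.01 CPM at 2 h. It rose by 3.03 ± 0.45 (adjusted p = 2.46e-05), together with Il15ra, the receptor chain that presents it (2.18 ± 0.39). Tnfsf10, the death ligand TRAIL, measured 52.9, 46.4 and 28.4 CPM at 4 h, against 1.92, 2.09 and 1.63 CPM at 2 h, the largest rise among the cytokines listed (4.50 ± 0.69, adjusted p = 3.42e-05). Cxcl10, a chemokine for activated T cells, measured 1410, 1470 and 1200 CPM at 4 h, against 702, 519 and 609 CPM at 2 h. It did not overlap but missed the threshold (1.16 ± 0.40, adjusted p = 0.0542), and passed with the block (1.14, adjusted p = 0.0396). With the block, the count of CXC chemokine genes was 5 higher and 2 lower of 11 tested, and without it 2 higher and 1 lower. Of 13 CC chemokines, 2 were higher and none was lower, and neither passed with only the 6 libraries in the fit. Those were Ccl5 (1.89 ± 0.54, adjusted p = 0.0197) and Ccl22 (1.64 ± 0.39, adjusted p = 0.00519). The call of Ccl22 was lost without the 4 h library of cohort 3 (adjusted p = 0.0564), and that of Ccl5 without the 2 h library of cohort 2 or 3 and without the 4 h library of cohort 1 or 3 (adjusted p up to 0.112).

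**Figure D2:**
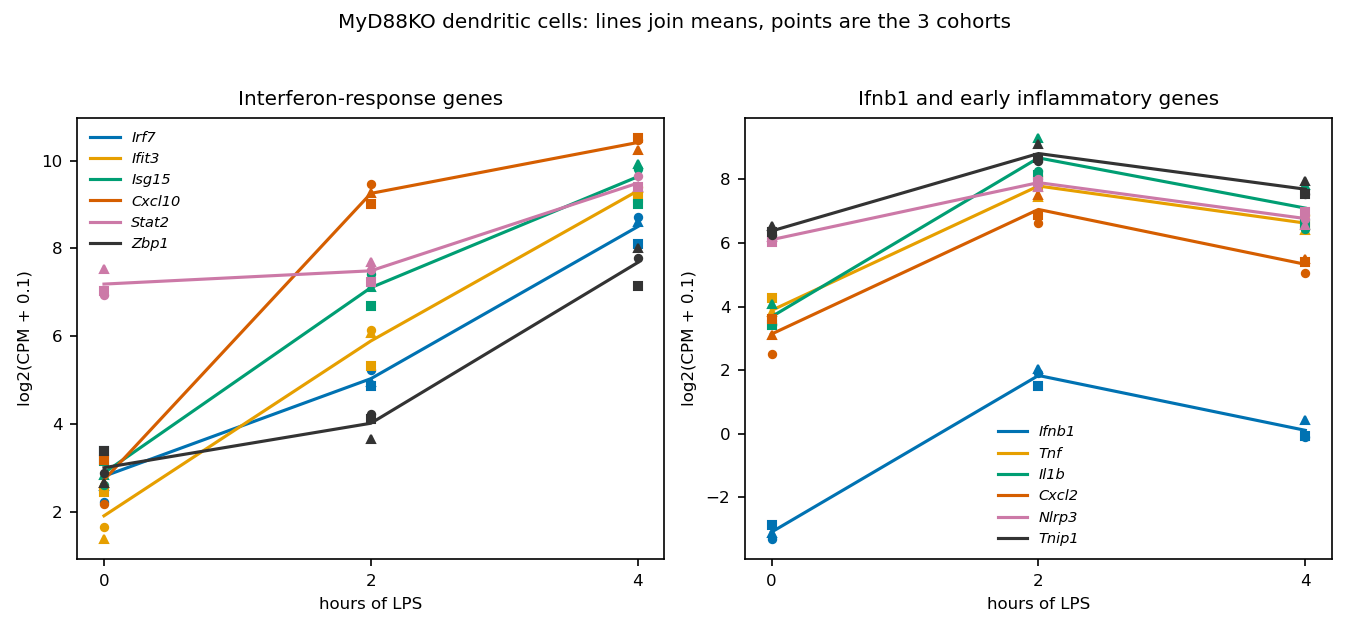
CPM at 0, 2 and 4 h of LPS in MyD88KO cells as log2(CPM + 0.1), for 6 interferon-response genes (left) and for Ifnb1 and 5 early inflammatory genes (right). Points are the 3 cohorts and lines join their means, and the 2 h libraries are shared by both steps. In each cohort the genes on the left were highest at 4 h and those on the right were highest at 2 h.

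Several immediate-early transcription factors fell. Of 24 AP-1, EGR and related genes, 7 were lower and 1 was higher, with a median of -0.43. Maff, a small partner of AP-1 type factors, measured 20.1, 28.7 and 23.9 CPM at 4 h, against 56.8, 50.4 and 65.3 CPM at 2 h (-1.25 ± 0.14, adjusted p = 2.7e-07). Myc, a driver of growth and the cell cycle, measured 6.86, 8.63 and 5.66 CPM at 4 h, against 16, 19.8 and 20.2 CPM at 2 h (-1.41 ± 0.29, adjusted p = 0.00134). In neither gene did the times overlap. Fos (4.4, 8.67 and 6.76 CPM at 4 h, against 4.22, 8.20 and 12.1 CPM at 2 h) and Egr1 (3.07, 5.40 and 3.06 CPM at 4 h, against 4.08, 5.82 and 5.33 CPM at 2 h) overlapped between times. Of 28 cell cycle genes, 1 was higher and 2 were lower, with a median of -0.48. In 18 of the 28 every 4 h library lay below every 2 h library, as in 14% of all genes tested. With only the 6 libraries and the block in the fit 19 were lower, and with a library left out 0 to 2. The 1 that rose was Ccnd1, the cyclin of early G1 (1.58 ± 0.29, adjusted p = 0.000317).

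**Figure D3:**
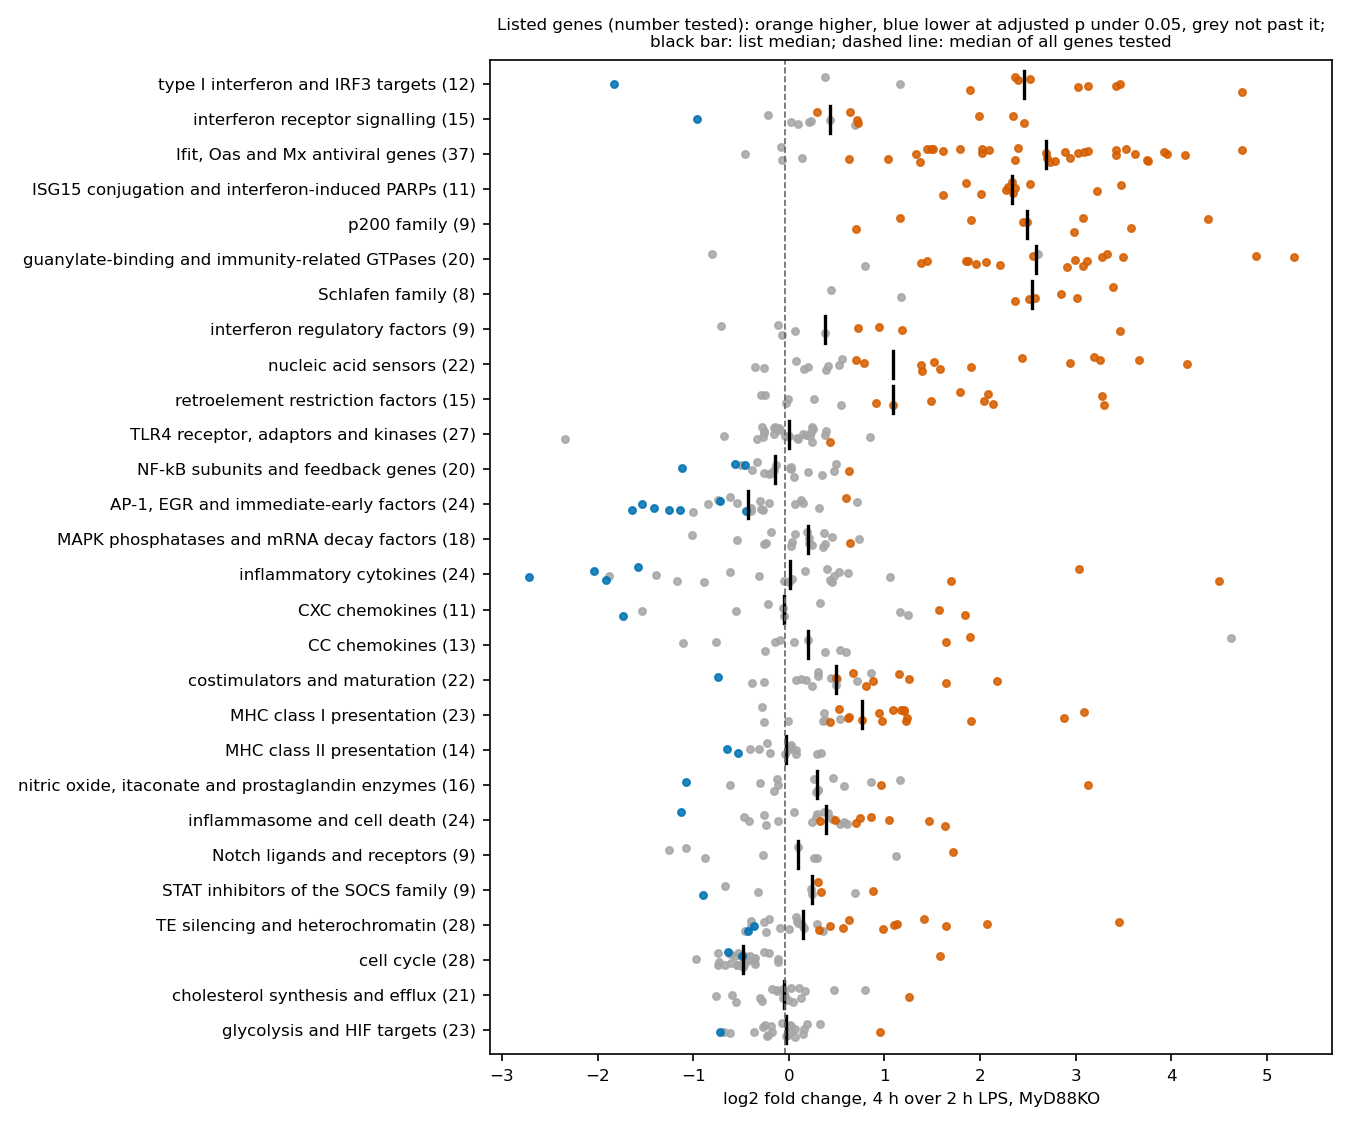
Log2 fold change, 4 h over 2 h, of the tested members of each gene list in MyD88KO cells, with orange and blue points for genes higher and lower at an adjusted p under 0.05 and grey points for the others, a black bar for the list's median and a dashed line for the median of all genes tested (-0.04). The ISG15, p200, GTPase, Schlafen and Ifit lists have medians of 2.33 to 2.69, and the medians of the AP-1 and cell cycle lists are -0.43 and -0.48.

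Maturation and cell death genes moved in part. Of 22 costimulators and maturation genes, 8 were higher and 1 was lower (median 0.49), and 2 were higher with only the 6 libraries in the fit. Ccr7, the receptor that guides dendritic cells to lymph nodes, measured 2180, 1310 and 2350 CPM at 4 h, against 1050, 652 and 930 CPM at 2 h (1.15 ± 0.25, adjusted p = 0.00237). It passed with each library left out in turn, and not with only the 6 libraries in the fit (adjusted p = 0.0706). Cd86, a costimulatory ligand, measured 412, 338 and 516 CPM at 4 h, against 368, 292 and 371 CPM at 2 h (0.30 ± 0.24, adjusted p = 0.491). Cd40, the receptor for T cell help, had a log2 fold change of 0.86 (adjusted p = 0.0799) and passed with the block (adjusted p = 0.0281). Of 24 inflammasome and cell death genes, 8 were higher and 1 was lower, against 13 and 1 with the block and 4 and 1 with only the 6 libraries in the fit. Casp4 (1.47 ± 0.21), the mouse caspase-11 that senses cytosolic LPS, and Casp1 (1.05 ± 0.16) were among those higher, and Nlrp3 was the one lower. Nos2, the inducible nitric oxide synthase, measured 9.85, 11.3 and 7.93 CPM at 4 h, against 0.494, 1.29 and 1.55 CPM at 2 h (3.13 ± 0.92, adjusted p = 0.0226), a call that was lost without the 2 h library of cohort 1 or 2 (adjusted p up to 0.0979).

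Genes that silence TEs and pack heterochromatin changed in both directions, with 11 higher and 2 lower of 28 tested (median 0.15). Members of nuclear bodies led the rises. Pml, the organiser of those bodies, measured 165, 116 and 110 CPM at 4 h, against 15.3, 11.6 and 8.79 CPM at 2 h (3.45 ± 0.51, adjusted p = 2.01e-05), and Sp100 (2.07 ± 0.19) and the histone chaperone Daxx (1.64 ± 0.23) rose with it. Morc3 (1.13 ± 0.17) and Atf7ip (1.10 ± 0.19), a partner of the methyltransferase SETDB1, rose as well. Setdb1 itself measured 36.5, 39.1 and 45 CPM at 4 h, against 34.1, 37.0 and 41.7 CPM at 2 h (0.10 ± 0.11, adjusted p = 0.661). Trim28, the corepressor that zinc finger proteins recruit to TEs, was lower, with a log2 fold change of -0.43 ± 0.14 (adjusted p = 0.0374). Its call was lost with any of 5 libraries left out, all but the 2 h library of cohort 1 (adjusted p up to 0.233).

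The 10 largest falls that the rule for named genes took included the lectin genes Cd209a and Clec10a, both on the list of conventional dendritic cell markers. Cd209a, a lectin of monocyte-derived and other dendritic cells, measured 1.6, 1.80 and 1.53 CPM at 4 h, against 21.8, 4.34 and 11.4 CPM at 2 h, and 32.5, 6.94 and 20 CPM before LPS. The 3 cohorts were nearly level at 4 h and far apart at 2 h (-2.93 ± 0.55, adjusted p = 0.000477). Clec10a, a lectin that binds galactose-type sugars, measured 6.50, 8.93 and 4.03 CPM at 4 h, against 32.9, 19 and 25.4 CPM at 2 h (-1.99 ± 0.41, adjusted p = 0.00132). Fcgrt, which encodes the receptor that recycles IgG, measured 8.06, 11.1 and 7.38 CPM at 4 h, against 40.8, 29.6 and 29.2 CPM at 2 h (-1.91 ± 0.45, adjusted p = 0.00435). Adgrg5, an adhesion G protein-coupled receptor, measured 1.75, 2.28 and 2.02 CPM at 4 h, against 15.7, 10.1 and 12.3 CPM at 2 h (-2.66 ± 0.57, adjusted p = 0.00203). In each of these genes the 3 libraries at 4 h lay below the 3 at 2 h, and levels before LPS were 37.9 to 57.6 CPM for Fcgrt and 13.4 to 27 CPM for Adgrg5. Il1a, an alarm cytokine, was also among the 10 (-2.04 ± 0.65, adjusted p = 0.0369), but its call was lost with each of 4 libraries left out, cohort 1 or 2 at 2 h and cohort 1 or 3 at 4 h (adjusted p up to 0.195). Hr, a corepressor of nuclear receptors, was another of them (-2.38 ± 0.76, adjusted p = 0.0361), with its call lost without the 2 h library of cohort 3 or any 4 h library (adjusted p up to 0.244).

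Few cell type markers passed the test, and those that did went in both directions. Over all genes tested 7.47% were higher and 4.67% were lower. The summed level of 16 conventional dendritic cell markers was 1830 to 2280 CPM at 4 h, against 2710 to 3250 CPM at 2 h. Of the 16, 2 were lower in the test (Cd209a and Clec10a, already described among the falls) and none was higher. With the block 5 were lower and 1 was higher. The median log2 fold change was -0.46. Of 15 tested macrophage markers, 1 was higher (Fcgr1, the high-affinity IgG receptor, 1.37 ± 0.25) and 1 was lower, with summed levels of 1680 to 3810 CPM at 4 h, against 2670 to 4540 CPM at 2 h, and 4 were lower with the block. Of 10 tested plasmacytoid dendritic cell markers, 3 were higher (Tcf4, Bst2 and Runx2), with summed levels of 438 to 699 CPM at 4 h, against 233 to 350 CPM at 2 h. In all 6 libraries 5 of the 10 were under 1 CPM. The log2 fold change was positive in 6 of the 10, and in 2 every 4 h library lay below every 2 h library. Siglech, 1 of the 10, had a log2 fold change of -1.5 (adjusted p = 0.481). The Bst2 promoter held ISRE cores 130 and 124 bases before the start. None of 15 tested granulocyte markers, 11 mast cell and basophil markers or 12 erythroid, megakaryocyte and stroma markers passed. Of 14 tested B, T and NK cell markers, 2 were higher, both chains of CD8. Cd8a measured 4.51, 1.76 and 4.28 CPM at 4 h, against 1.47, 0.615 and 0.529 CPM at 2 h (2.01 ± 0.60, adjusted p = 0.0244), a call lost without the 2 h library of cohort 2 or 3 and without the 4 h library of cohort 1 or 3 (adjusted p up to 0.11), and Cd8b1 was at 0 in all 2 h libraries and at or under 0.432 CPM at 4 h, with its call lost in 5 of the 6 fits with a library left out (adjusted p up to 0.265). The macrophage marker Vsig4 and the mast cell marker Mcpt4 were at 0 in all 6 libraries. The part of these markers in the falls and rises was not tested.

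The counts of the other lists follow, beside 7.47% higher and 4.67% lower over all genes tested. Of 12 tested type I interferon genes and IRF3 targets, 9 were higher and 1 was lower (median 2.46). Of 9 interferon regulatory factors, 4 were higher (median 0.38), Irf7 with the largest change. Of 16 genes for nitric oxide, itaconate and prostaglandin enzymes, 2 were higher and 1 was lower, and Acod1, which makes itaconate, measured 1730, 1930 and 643 CPM at 4 h, against 1420, 1610 and 451 CPM at 2 h (0.31 ± 0.67, adjusted p = 0.841). Acod1 passed with only the 6 libraries and the block in the fit (0.38, adjusted p = 0.0171). Of 9 SOCS family genes and relatives, 3 were higher and 1 was lower, and none passed with only the 6 libraries in the fit. MAPK phosphatases and mRNA decay factors gave 1 higher of 18, Notch ligands and receptors 1 higher of 9, cholesterol genes 1 higher of 21, and glycolysis and HIF targets 1 higher and 1 lower of 23. Over the alternatives the count higher ran from 0 to 9 for the nitric oxide list, from 0 to 4 for the MAPK list, from 0 to 3 for the SOCS list, from 1 to 3 for the cholesterol list and from 0 to 2 for the Notch and the glycolysis lists. With only the 6 libraries and the block in the fit, the setting with the most calls, larger counts also came in lists described above. The cytokine list then had 7 higher and 6 lower, costimulators and maturation 14 and 1, inflammasome and cell death 17 and 2, AP-1 and related factors 3 and 12, NF-kB subunits and feedback genes 4 and 5, and the TLR4 list 5 and 3. Macrophage markers had 2 higher and 8 lower in that fit, and conventional dendritic cell markers 1 and 8. Of the genes that silence TEs, 12 were higher and 4 lower there, and 6 and 0 without the block.

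ISRE cores were more frequent in front of genes that rose than in front of the rest, as a description of these windows. Of 1081 genes higher at 4 h, 856 had a RefSeq promoter, and 103 of these held the core (12%). Among genes lower at 4 h the core stood in 14 of 533 (2.63%), and among genes not called in 331 of 9953 (3.33%). Over all 32851 promoters in the RefSeq table it stood in 1131 (3.44%), counted per promoter, while a gene counted if any of its promoters held it. Of genes at least 2-fold higher, 77 of 326 held it (23.6%), and of the Ifit, Oas and Mx list 15 of 30 did (50%). The NF-kB site stood in 6 of 856 higher genes (0.701%) and in 4 of 533 lower genes (0.75%). It stood in 54 of 9953 genes not called (0.543%) and, counted per promoter, in 135 of all promoters (0.411%). Of genes changed at least 2-fold, 2 of 326 higher genes (0.613%) and 3 of 144 lower genes (2.08%) held it.

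With TE counts scaled by gene totals, more TE subfamilies were higher than lower at 4 h, and a single copy gave most of the counts of several of the subfamilies with the largest changes. Of 945 subfamilies tested, 78 changed (8.25%), of which 71 were higher (7.51%) and 7 were lower (0.741%), by the same test. The median log2 fold change of the subfamilies was 0.18. When scaled by the totals of the TEs themselves, the median was -0.04 and the split was 71 higher and 24 lower. Subfamily changes below are on the gene scale, on which the median subfamily stood at 0.18. With only the 6 libraries in the fit 127 subfamilies changed, and 275 with the block as well. Without the 4 h library of cohort 3 the count was 44, and without the 2 h library of cohort 2 it was 46. Among classes, 49 of 593 LTR subfamilies were higher and 6 lower, 14 of 151 LINE subfamilies were higher and none lower, 7 of 165 DNA transposon subfamilies were higher and 1 lower, and 1 of 35 SINE subfamilies was higher. The ERVK family, which holds the IAP elements, gave 31 of the higher subfamilies and 1 of the lower out of 270 tested.

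The largest rise was that of ERVB2_1-I_MM-int, the internal part of an ERVK element. It measured 50.1, 43 and 50.7 CPM at 4 h, against 2.37, 1.81 and 1.65 CPM at 2 h. The libraries of a time lay close together and the times far apart (4.62 ± 0.88, adjusted p = 0.00051). The busiest of its copies gave 74.6% of its counts, and 4 of its 4 tested copies were higher. MamRep38, an old DNA transposon, measured 122, 111 and 87.2 CPM at 4 h, against 21.4, 13.4 and 17.6 CPM at 2 h (2.61 ± 0.35, adjusted p = 5.19e-06), with 69.6% of counts from 1 copy. RLTR13D2, an ERVK long terminal repeat, measured 23.1, 19.1 and 15.1 CPM at 4 h, against 3.99, 3.62 and 3.09 CPM at 2 h (2.42 ± 0.39, adjusted p = 5.51e-05), and its busiest copy gave 36.8%. L1Md_Gf, a subfamily of young L1 elements, rose by 2.33 ± 0.53 (adjusted p = 0.00404) with 92.4% of counts from 1 copy and 1 of 2 tested copies higher. MER89 rose by 2.24 ± 0.28 (adjusted p = 3.41e-06) with 95.1% from 1 copy. For both, nearly all counts came from a single copy. Among the falls, MLT1D, an old MaLR repeat, measured 166, 175 and 213 CPM at 4 h, against 246, 261 and 315 CPM at 2 h (-0.57 ± 0.13, adjusted p = 0.005), with 73.0% of counts from 1 copy and the call lost without the 2 h library of cohort 3 (adjusted p = 0.0551). The copies carry no coordinates in the files, so whether a copy lies in or beside a gene that moved was not analysed here.

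**Figure D4:**
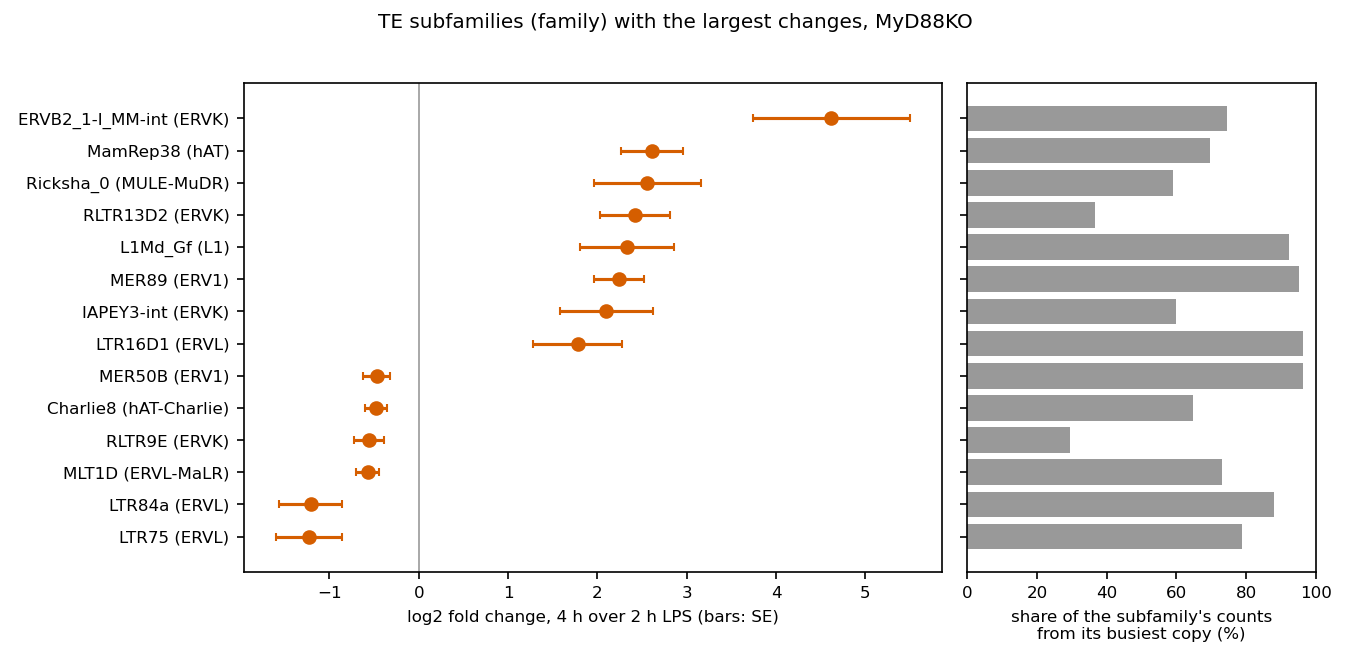
Log2 fold change, 4 h over 2 h, ± SE of the 14 named TE subfamilies in MyD88KO cells (left), and the percentage of each subfamily's counts that comes from its busiest copy (right). The busiest copy gives 92.4% of L1Md_Gf and 95.1% of MER89, and 36.8% of RLTR13D2.

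Of 64924 single TE copies tested, 1031 changed (1.59%), with 932 higher (1.44%) and 99 lower (0.152%). Higher copies made up 2.68% of ERVK copies (140 of 5229), 2.07% of L1 copies (194 of 9369) and 1.04% of SINE copies (372 of 35769). The largest rises came in neighbouring entries of the table. An IAPEY3-int copy numbered 323530 measured 12, 12.6 and 17.7 CPM at 4 h, against 0.194, 0.298 and 0.346 CPM at 2 h (5.65 ± 1.01, adjusted p = 0.00067). The entries numbered 323528 (IAPEY3_LTR) and 323529 (IAPEY3-int) were also among the 5 largest rises, as were a MYSERV6-int copy numbered 698965 (5.84 ± 0.65, adjusted p = 4.77e-07) and an L1_Mus2 copy numbered 698966. Whether these numbers follow position in the genome is not given in the sources used here. Without the 2 h library of cohort 2, 453 copies changed, 551 without that of cohort 3, 664 without the 4 h library of cohort 1 and 654 without that of cohort 3.

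As a share of gene and TE counts together, TEs took 4.81%, 4.76% and 4.79% at 4 h and 4.78%, 4.42% and 4.23% at 2 h. The means were 4.79% ± 0.0249 at 4 h and 4.48% ± 0.276 at 2 h (SD, n = 3 each), with overlap between times and the 4 h library higher in 3 of 3 cohorts. The difference of 0.308 percentage points had an exact two-sided permutation p of 0.2, where 3 against 3 libraries cannot go below 0.1. Of the shares of single classes, that of LINE had the smallest p. It was 0.754%, 0.814% and 0.796% at 4 h and 0.718%, 0.699% and 0.629% at 2 h, with no overlap. Its exact permutation p was 0.1, the smallest this design allows. By the same test p was 0.3 for the LTR share, 0.3 for the SINE share and 0.2 for the DNA transposon share.

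The change between times was set against that of wild-type cells by a test of the difference itself. In wild-type cells 5175 genes changed between 2 h and 4 h. That count rests on 6 libraries at 4 h and 5 at 2 h, so it is not comparable with the count from 3 and 3 MyD88KO libraries. The change differed between genotypes for 8 of 14475 genes (0.0553%), and in all 8 it was lower in MyD88KO than in wild-type cells. The fit behind both counts took wild-type libraries sharing a cohort number and time as separate replicates. With these libraries summed, 2 genes differed between genotypes, 1 higher and 1 lower in MyD88KO cells, and 1 of the 8 was among them. At an unadjusted p under 0.05, 1110 genes differed, and DESeq2 called 46. Of genes of the TRIF and interferon pathways, Tbk1 was among the 8 and Irf7 was not. Irf7 rose by 3.46 ± 0.47 in MyD88KO cells and by 2.64 ± 0.34 in wild-type cells, a difference of 0.82 ± 0.53 (adjusted p = 0.796). For Il1b the difference was -1.54 ± 0.46 (adjusted p = 0.316), with -1.58 in MyD88KO and -0.04 in wild-type cells. For Cxcl2 it was -1.86 ± 0.60 (adjusted p = 0.354), with -1.73 in MyD88KO and 0.13 in wild-type cells. Intervals of this width do not show that the genotypes changed alike.

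Cd72, an inhibitory receptor best known from B cells, measured 4.10, 3.75 and 4.12 CPM at 4 h, against 3.39, 3.88 and 6.75 CPM at 2 h in MyD88KO cells. In wild-type cells it measured 50.8 to 129 CPM at 4 h, against 8.65 to 23.1 CPM at 2 h. The libraries overlapped between times in MyD88KO cells and not in wild-type cells, and the difference of the log2 changes was -2.59 ± 0.43 (adjusted p = 0.0171). Its call was lost without the 2 h library of cohort 3 (adjusted p = 0.0630). Tesk1, a kinase that acts on the actin skeleton, overlaps Cd72 on chromosome 4 (Tesk1 at 43441939 to 43448064 on the plus strand, Cd72 at 43446462 to 43454628 on the minus strand, GRCm38) and differed by -0.87 ± 0.16. Maml2, a coactivator of Notch signalling, measured 3.53, 6.51 and 3.20 CPM at 4 h, against 5.58, 7.70 and 5.53 CPM at 2 h in MyD88KO cells, and 8.46 to 28.8 CPM at 4 h, against 4.01 to 5.15 CPM at 2 h in wild-type cells (difference -2.53 ± 0.48, adjusted p = 0.0307). In MyD88KO cells the log2 fold changes of Maml2 (-0.51), Cd72 (-0.23) and Myd88 (-0.14) were negative but did not pass the test. Trerf1, a zinc finger regulator of transcription, was the only one of the 8 whose fall in MyD88KO cells passed it. It measured 32.4, 32.4 and 23.3 CPM at 4 h, against 68.9, 57.1 and 63.4 CPM at 2 h in MyD88KO cells, and 29 to 48.3 CPM at 4 h, against 26.2 to 43.4 CPM at 2 h, in wild-type cells (difference -1.42 ± 0.25, adjusted p = 0.0171). Tbk1, the kinase that activates IRF3, measured 122, 114 and 110 CPM at 4 h, against 108, 105 and 98.6 CPM at 2 h in MyD88KO cells, and 180 to 204 CPM at 4 h, against 107 to 129 CPM at 2 h in wild-type cells (difference -0.52 ± 0.09, adjusted p = 0.0171). Tbk1 and Oxsr1, a stress-responsive kinase (difference -0.43 ± 0.09, adjusted p = 0.0415), fall outside the rule for named genes and were chosen after their values were seen. Cmtm6, which stabilises the checkpoint ligand PD-L1 at the surface, differed by -0.70 ± 0.14 (adjusted p = 0.0415), and Myd88 itself by -0.66 ± 0.12 (adjusted p = 0.0171). Without the 2 h library of cohort 3 no gene was called. Over the 6 fits with a library left out, Tesk1 and Trerf1 lost their call in 3 (adjusted p up to 0.115 for both), Myd88 in 4 (up to 0.106), Maml2, Tbk1 and Oxsr1 in 5 (up to 0.159) and Cmtm6 in 6 (up to 0.194). With the block, Cmtm6 (adjusted p = 0.0642) and Oxsr1 (adjusted p = 0.0595) were lost and 16 genes were called in all. Up to 2 wild-type libraries share a time and a cohort number, in a set of library numbers under 15 and a higher one. With only the set under 15 no gene passed, the differences of Cd72, Maml2 and Trerf1 being -2.50, -2 and -1.46. Of the TE subfamilies none differed between the genotypes (0.0%), by edgeR or by DESeq2, and 26 did at an unadjusted p under 0.05.

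**Figure D5:**
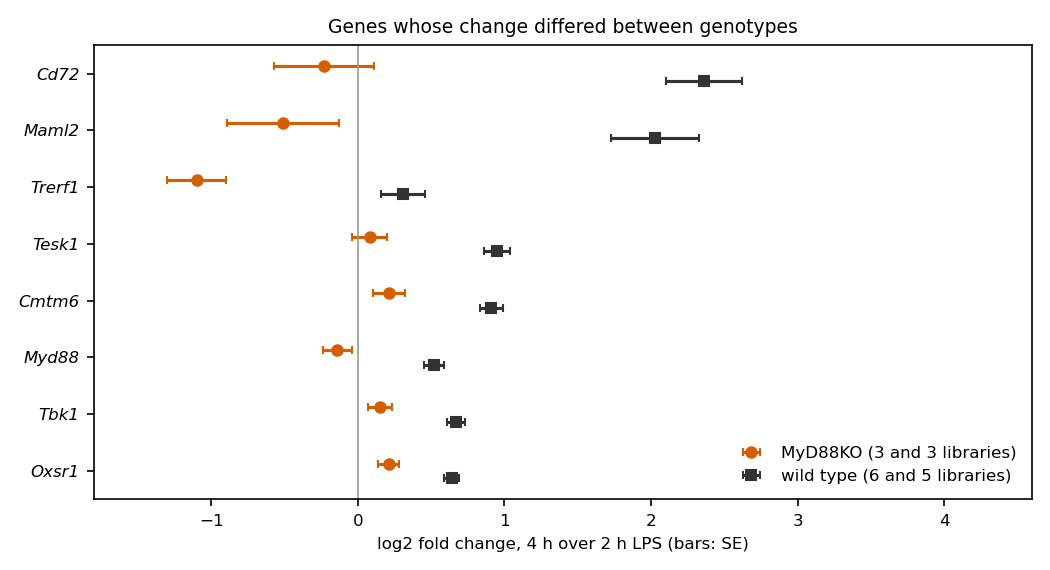
Log2 fold change, 4 h over 2 h, ± SE in MyD88KO and in wild-type cells for the 8 genes whose change differed. The log2 fold changes of Cd72 and Maml2 are -0.23 and -0.51 in MyD88KO cells, against 2.36 and 2.03 in wild-type cells.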

How the data were processed

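Per the labels' protocols, poly(A) RNA was sequenced from TruSeq stranded libraries. STAR, HOMER, DESeq2 and the mouse build mm10 are named in the submitters' processing notes, with no versions. The authors deposited raw counts per gene and per repeat copy, whole numbers with no normalization. Whether counting used strand is not given in the sources used here, so counts of overlapping or antisense genes (Tesk1 with Cd72, and Oasl1, Irf9, Usp18, Dhx58 and Tapbp with their neighbours) and of near-identical family members (Ifit, Oas, p200, Trim30, Phf11, Schlafen and GTPase genes) are uncertain.

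Genes were filtered with filterByExpr, scaled by TMM and tested by the quasi-likelihood F test of edgeR 4.0.16 (R 4.3.3), with 1 term for each of the 9 groups over 35 libraries, so that all groups shared 1 estimate of the spread, and Benjamini-Hochberg adjustment at 0.05. The standard error is the absolute log2 fold change over the square root of F. CPM are counts over gene totals times the TMM factors. TE counts (LINE, SINE, LTR, DNA and RC classes) were summed per subfamily, or kept per copy with at least 10 counts in at least 3 libraries, and scaled by gene totals. Alternatives were DESeq2 1.42, its size factors, no filter on low counts, at least 5 counts per copy, TE totals, a fit of the compared groups alone, the cohort block, each library left out, and other sets of wild-type libraries. Scripts were tested on simulated data.

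Cohort numbers were taken to pair the libraries in the fits with the block, and the main fit did not use this pairing. Deviations from the group means correlated at 0.501, 0.6 and 0.634 within cohorts 1, 2 and 3 and at -0.484 to -0.0471 between cohorts. Xist was high in cohorts 1 and 2 and at 0 at both times in cohort 3. Gene totals were 46035727 to 54354876 counts. Replicates of a time differed by far more than the sampling of reads gives, with a chi-square per degree of freedom of 92.3 to 298. The p-values of the main fit rest on a spread estimated over all 35 libraries, not over the 6 alone. Sequences are RefSeq's on GRCm38.p6, with a promoter found for 11342 of 14475 genes tested, and gene positions are GENCODE's on GRCm38. Ifi203, Ifi206, Trim5, Il12b, Setdb2, Cd300c and Ly6g were not analysed here. Members and lists were chosen with earlier results of these data known. Named genes are Myd88, Ticam1 and Tlr4, fixed anchors of each list, up to 4 further called members of a list with the largest change, the 10 largest non-overlapping rises and falls whose higher group averaged 5 CPM or more, up to 6 differences between genotypes in each direction, and the 8 largest subfamily and 5 largest copy changes each way with at least 50 counts. Any other gene named was chosen after its values were seen.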

Additional observations from a re-analysis of the deposited data

Results flagged for a closer look

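The change between 2 h and 4 h differed between MyD88KO and wild-type cells, by the test of the difference itself, for 8 genes. The differences (log2, MyD88KO minus wild type) were -2.59 for Cd72, -2.53 for Maml2, -1.42 for Trerf1, -0.87 for Tesk1, -0.70 for Cmtm6, -0.66 for Myd88, -0.52 for Tbk1 and -0.43 for Oxsr1. Of these 8 genes, 4 (Myd88, Oxsr1, Cmtm6 and Maml2) lie on chromosome 9, which holds 809 of the 14150 tested genes with an annotated chromosome (5.72%). Oxsr1 lies 13507 bases and Cmtm6 4586590 bases from Myd88. The part of the position in the differences was not tested.

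In wild-type cells at 2 h, 1 library stood above the other 4 in Maml2. It measured 5.15 CPM, and the lowest of the others measured 4.01 CPM. By chance about 1 in 20 groups would show such a gap, and it was looked for in each of the 8 genes and in the TE share, at both times.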

How the results depend on the processing

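Against 1757 genes changed, 604 were called with only the compared groups in the fit (555 of them among the 1757), 2325 with the cohort block (1730 of them among the 1757), 3605 with both (1644), and 938 to 1990 with a library left out. The fewest came without cohort 3 at 4 h (938) and cohort 2 at 2 h (1140). For the 78 subfamilies the counts were 127, 77, 275 and 44 to 76, the fewest without the same libraries (44 and 46). For the 1031 copies they were 1223, 1169, 3576 and 453 to 1001. Of the genes differing between genotypes, 8 in the report, DESeq2 called 46, the block 16, DESeq2's size factors 6, a sum of the wild-type libraries of a cohort 2 and no filter on low counts 1. None was called with only the compared groups, with or without the block, or with wild-type libraries numbered under 15, and 0 to 8 with a library left out. Fits with fewer libraries estimate the spread from fewer of them; for the other settings the cause was not tested. No subfamily differed between genotypes in any of the settings run.

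Over up to 12 alternatives, 215 named genes gave 2574 values, of which 2319 kept their side of the threshold, 206 lost the call, 46 gained it and none reversed; 3, for 3 genes, had no DESeq2 adjusted p. With the block, the calls gained are given beside the genes. The difference in TE share stayed between 0.185 and 0.457 percentage points with a library left out, was 0.312 with all repeats counted, and 0.308 within cohorts (exact paired p of 0.25, the smallest possible).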

Other observations

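Further genes also separated the times. Ms4a6b, a membrane-spanning protein of myeloid cells, measured 17.5, 13.2 and 37.1 CPM at 4 h, against 1.77, 0.914 and 1.53 CPM at 2 h (log2 fold change 4.01 ± 0.56, adjusted p = 8.76e-06). Abcg1, a cholesterol exporter, measured 167, 130 and 91.0 CPM at 4 h, against 56.4, 64.7 and 40.7 CPM at 2 h, and was the 1 gene of 21 tested in cholesterol synthesis and efflux that changed (1.26 ± 0.26, adjusted p = 0.00147). Irf2, which encodes a factor that binds the same element as the other interferon regulatory factors, measured 108, 96.2 and 107 CPM at 4 h, against 45.4, 43.9 and 48.3 CPM at 2 h (1.18 ± 0.13, adjusted p = 3.48e-07).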
